A study of Mus musculus with 13 samples.

Results

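The 10 genes described here encode matricellular and related matrix proteins: Spp1, Tnc, Postn, Fn1, Sparc, Thbs1, Thbs2, Tnxb, Ctgf and Cyr61. They were taken by symbol from a mouse mammary RNA-seq table of 38279 symbols, and all 10 were found, 8 under the listed symbol and Ctgf and Cyr61 under their newer symbols Ccn2 and Ccn1. The set was put together because Spp1 and Tnc were higher in tumours than in glands while fibroblast markers were lower, so the values of these 10 genes and of the fibroblast markers in that comparison are a description and carry no test. The libraries are 6 tumours of the mammary gland from mice positive for Cre and 4 glands, dissected whole, from mice negative for Cre, which the labels call wild type (WT). Mating at an age of 12 weeks served to induce excision of Fbxw7, which recognises the substrates of a ubiquitin ligase, and both kinds of mice were mated. The tumours, numbered 1 to 6, were taken at ages of 25, 32, 39, 19, 53 and 25 weeks. Glands 1 to 3 were taken at 20 weeks and gland 4 at 40 weeks. The promoter that drives Cre is not given in the labels. The series has 13 samples, and the other 3, of purified epithelium, were not analysed here.

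Matricellular proteins are secreted into the extracellular matrix, where they bind cell surface receptors, growth factors and proteases more than they carry mechanical load. Many are low in resting adult tissue and are made in development, wound repair and tumours, by epithelial cells, fibroblasts or macrophages according to the gene. Fibronectin (Fn1) is a structural glycoprotein of the matrix and tenascin X (Tnxb) belongs to collagen-rich connective tissue, and both stand here beside the matricellular proteins in the strict sense.

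Levels are CPM, read counts scaled to a common library total, after TMM scaling, a correction for differences in RNA composition between libraries, and a log2 difference is the edgeR estimate of tumour over gland with its standard error (SE). Total counts per library ran from 13723065 to 48353114. Of the libraries, 3 stood apart. Markers of salivary gland took 50.3% of the counts in tumour 1 and 18.6% in tumour 6, against at most 0.0387% in the other tumours and at most 0.0528% in the glands. In gland 4, mitochondrial transcripts took 37.5% and skeletal muscle markers 6.64% of the counts, against at most 14.0% and 1.37% in the other glands. Fbxw7 itself was at 33.3, 47.3, 15.1, 27.8, 28.6 and 33.1 CPM in tumours 1 to 6, against 14.3, 17.8, 18.4 and 83.6 CPM in glands 1 to 4, so the gene-level count did not separate the groups. The counts do not show which exons were covered. Markers of luminal epithelium summed to between 1977 and 4379 CPM in the tumours, above the 462 to 787 CPM of the glands, and 8 of 10 of these markers rose. In these bulk libraries, fewer cells of a type and less RNA per cell cannot be told apart.

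Spp1 encodes osteopontin, a secreted phosphoprotein of bone, milk, activated macrophages and many carcinomas that binds integrins and Cd44. It was at 250, 466, 9521, 3856, 151 and 9871 CPM in tumours 1 to 6, against 12.2, 3.61, 6.52 and 9.03 CPM in glands 1 to 4. Each tumour lay above each gland, and the lowest tumour, tumour 5, was still above gland 1, the highest gland. Tumours 3, 4 and 6 formed the high end and tumours 1, 2 and 5 the low end, with the highest tumour 65.4 times the lowest. The estimated log2 difference was 9.00 ± 1.67 (SE), a 513-fold difference. In tumour 3 Spp1 was the 9th most counted gene, with 0.846% of all counts, in tumour 6 the 10th with 0.977% and in tumour 4 the 14th with 0.490%. Its share in the glands was at most 0.00131%. Without tumours 1 and 6, which carried the salivary transcripts, the log2 difference was 8.78. Over 20 alternative settings it lay between 7.67 and 9.30.

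Tnc encodes tenascin C, a large hexameric glycoprotein of embryonic mesenchyme, wounds and tumour stroma. It was at 7.33, 43.1, 66.6, 164, 98.9 and 187 CPM in tumours 1 to 6, against 3.88, 7.74, 8.85 and 3.50 CPM in glands 1 to 4. In 5 of 6 tumours it lay above each gland, and tumour 1 lay among the glands, below glands 2 and 3. The log2 difference was 3.98 ± 0.81 (SE), a 15.8-fold difference, and without tumours 1 and 6 it was 3.94. The 7.33 CPM of tumour 1 rest on 107 counts and the 3.50 CPM of gland 4 on 55.

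Ccn2 (Ctgf, connective tissue growth factor) and Ccn1 (Cyr61) are secreted CCN proteins that bind integrins and heparan sulfate, and both are known targets of Yap and Tead and of TGF-beta. Ccn2 was at 9.12, 142, 61.8, 126, 72.6 and 61.1 CPM in tumours 1 to 6, against 4.59, 6.12, 7.74 and 5.60 CPM in glands 1 to 4. Each tumour lay above each gland, though tumour 1 only narrowly, and the log2 difference was 3.71 ± 0.65 (SE), a 13.1-fold difference. Ccn1 was at 3.02, 12.4, 27.2, 58.5, 17.4 and 42.3 CPM in tumours 1 to 6, against 7.59, 19.9, 15.1 and 22.4 CPM in glands 1 to 4. The groups overlapped, with 3 of 6 tumours above each gland and tumour 1 below each gland, and the log2 difference was 0.72 ± 0.65 (SE). So the CCN members differed in their placement: Ccn2 separated the groups and Ccn1 did not, although the difference between the 2 genes was not tested. An antisense gene model, Gm15270, overlaps 636 exon bases of Ccn2. Whether the counting used strand was not known here, but the highest count of Gm15270 in any library was 30.

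The bases before the transcription start are shown for Spp1 and Tnc, the genes the set is named for, and for Ccn1, the CCN gene matched there. They come from a table of RefSeq promoters (GRCm38.p6) in which 7 of the 10 genes were matched, and Fn1, Thbs1 and Ccn2 are named only. Each sequence is the 250 bases before the start of the first RefSeq entry, read 5′ to 3′ on the gene's strand: chr5:104434861-104435110 (plus strand) for Spp1, chr4:64047016-64047265 (minus strand) for Tnc and chr3:145649986-145650235 (minus strand) for Ccn1. Capitals mark a match to one of the motifs searched.
Spp1: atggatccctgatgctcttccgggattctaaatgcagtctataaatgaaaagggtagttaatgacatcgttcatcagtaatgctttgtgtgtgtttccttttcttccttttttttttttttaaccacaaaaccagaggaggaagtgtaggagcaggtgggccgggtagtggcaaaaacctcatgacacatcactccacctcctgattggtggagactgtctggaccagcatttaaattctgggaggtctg
Tnc: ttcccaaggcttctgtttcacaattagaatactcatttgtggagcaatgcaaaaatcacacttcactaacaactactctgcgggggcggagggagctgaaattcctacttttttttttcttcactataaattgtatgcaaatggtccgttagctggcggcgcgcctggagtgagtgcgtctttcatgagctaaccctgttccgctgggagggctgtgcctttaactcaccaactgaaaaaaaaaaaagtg
Ccn1: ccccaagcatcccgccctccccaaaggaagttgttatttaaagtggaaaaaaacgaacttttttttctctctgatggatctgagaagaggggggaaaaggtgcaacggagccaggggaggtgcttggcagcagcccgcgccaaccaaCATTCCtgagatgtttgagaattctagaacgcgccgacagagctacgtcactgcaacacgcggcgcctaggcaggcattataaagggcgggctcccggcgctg
Searched on both strands were the AP-1 motif TGANTCA, the Tead motif GGAATG and the E-box CACGTG. The capitals in Ccn1 are the Tead motif read from the opposite strand, 103 bases before the start. Among the other 4 genes with an entry, Tnxb held the AP-1 motif 55 bases before its start. Spp1 and Tnc held none of these letters in the window. Of 32851 mouse promoter windows of the same length, 12.6% held the Tead motif, 6.75% the AP-1 motif and 6.02% the E-box, so a match of this kind is common and describes the letters only.

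**Figure D1:**
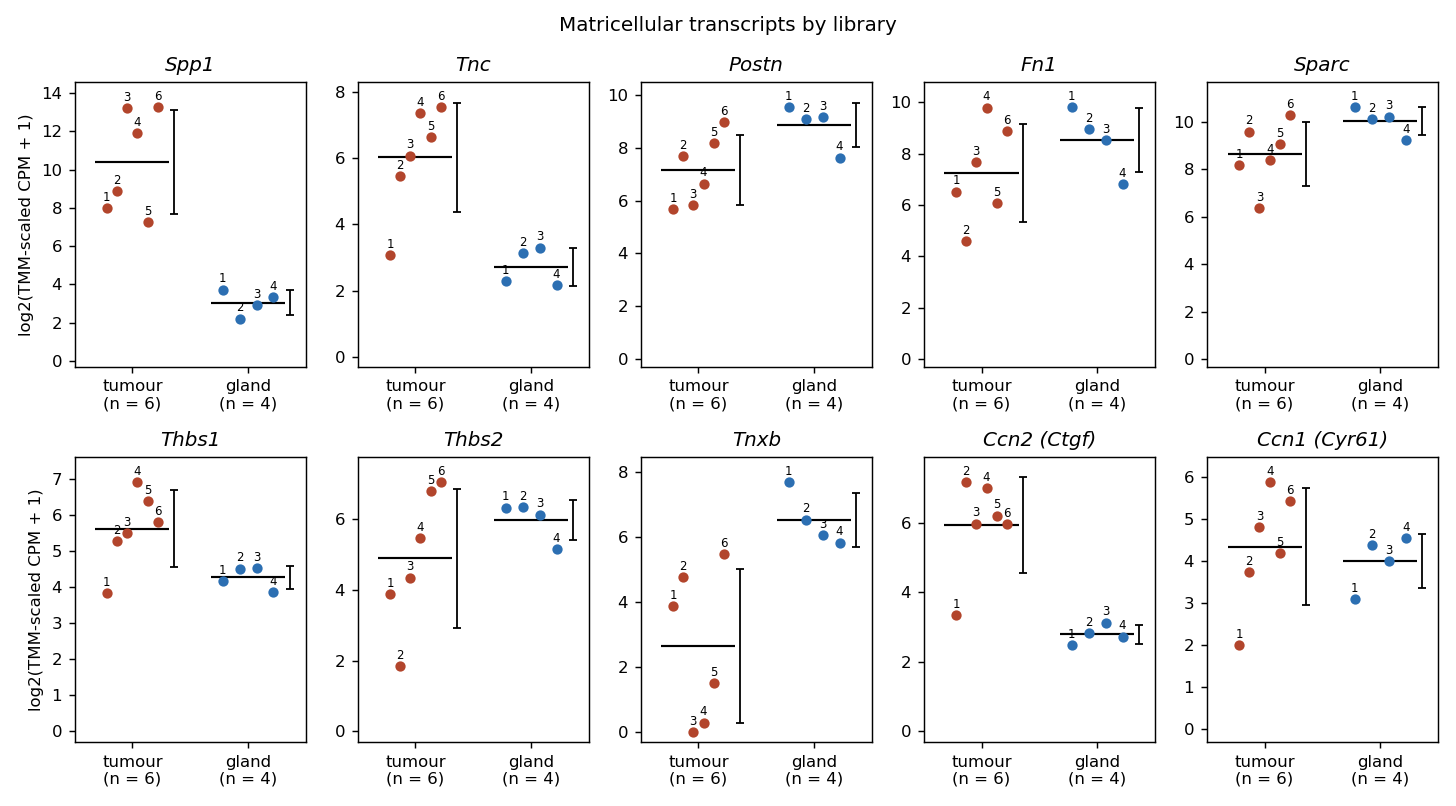
TMM-scaled CPM of the 10 genes on a log2 scale after adding 1 (y axis), for 6 tumours (red, left) and 4 glands (blue, right), with library numbers beside the points; lines are means of the log2 values and whiskers are SD. Spp1 and Ccn2 separate the groups upward and Tnxb downward, and in each panel the tumours spread more widely than the glands.

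Thrombospondins are glycoproteins that bind Cd36, Cd47 and integrins and restrain blood vessel growth, and Thbs1 also activates latent TGF-beta. Thbs1 was at 13.2, 37.6, 44.0, 120, 83.0 and 55.4 CPM in tumours 1 to 6, against 17.1, 21.9, 22.1 and 13.6 CPM in glands 1 to 4. In 5 of 6 tumours it was above each gland and in tumour 1 below each, with a log2 difference of 1.66 ± 0.52 (SE). Thbs2 was at 13.8, 2.59, 19.4, 43.4, 111 and 132 CPM in tumours 1 to 6, against 79.6, 80.0, 69.4 and 34.7 CPM in glands 1 to 4. Its tumours lay on both sides of the glands, with tumours 5 and 6 above each gland and tumours 1, 2 and 3 below each, and the log2 difference was -0.30 ± 0.82 (SE).

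Postn, Sparc and Fn1 are matrix genes with high expression in fibroblasts. Periostin (Postn), which binds integrins and takes part in collagen assembly, was at 50.4, 208, 55.6, 99.8, 294 and 508 CPM in tumours 1 to 6, against 755, 553, 583 and 198 CPM in glands 1 to 4. Tumours 1, 3 and 4 lay below each gland and the others within the gland range, with a log2 difference of -1.37 ± 0.65 (SE). Sparc (osteonectin), a collagen-binding glycoprotein, was at 289, 760, 81.8, 330, 525 and 1239 CPM in tumours 1 to 6, against 1559, 1092, 1181 and 591 CPM in glands 1 to 4. In 4 of 6 tumours it lay below each gland, while tumours 2 and 6 lay within the gland range, and the log2 difference was -1.04 ± 0.62 (SE). Fn1 was at 90.6, 22.9, 204, 882, 65.9 and 472 CPM in tumours 1 to 6, against 899, 493, 368 and 112 CPM in glands 1 to 4. Tumour 4 lay near gland 1 at the top and tumours 1, 2 and 5 below each gland, with a log2 difference of -0.69 ± 0.89 (SE). It was -1.44 without tumour 4, -0.18 without gland 1 and -0.11 with age as a covariate.

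Tnxb, whose product organises collagen in dermis, tendon and loose connective tissue, was at 13.6, 26.0, 0, 0.225, 1.82 and 43.5 CPM in tumours 1 to 6, against 204, 91.1, 65.8 and 55.7 CPM in glands 1 to 4. Each tumour lay below each gland, and tumours 3, 4 and 5 were nearly without it: tumour 3 had 0 counts, which allows up to 0.0742 CPM at 3 counts, and tumour 4 had 13. The log2 difference was -2.88 ± 1.34 (SE), and it was -3.72 without tumour 6, -3.91 without tumours 1 and 6, -4.12 without these and gland 4, and -5.54 with limma-voom, the only alternative in which Tnxb passed the threshold. The 2 tenascins of the set therefore lay on opposite sides of the glands, Tnc higher in 5 of 6 tumours and Tnxb lower in 6 of 6.

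Of the 10 genes, 3 were higher in tumours at an adjusted p under 0.05 (edgeR quasi-likelihood test, Benjamini-Hochberg over all 20101 genes tested), namely Spp1, Tnc and Ccn2, and 0 were lower. Over all genes tested 6.89% were higher and 8.19% lower by this rule. Since the set was chosen on this contrast, nothing is read from the count. In the same way, 2 of the 10 (Spp1 and Ccn2) had every tumour above every gland, as did 6.54% of all genes, and 1 (Tnxb) had every tumour below every gland, as did 7.50%. The median log2 difference of the 10 genes was 0.21, beside 0.17 over all genes tested. Spp1, Tnc and Ccn2 passed in each of the 20 alternative settings and Thbs1 in 6 of 20, among them without tumour 1. The alternatives refit the contrast on which the set was chosen, so passing in them is no further support. Postn passed only without tumours 1 and 6 and gland 4, where its log2 difference was -2.04.

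What the 10 genes shared was a wide spread among tumours. On the log2 scale the SD over the 6 tumours was 2.71 for Spp1, 2.36 for Tnxb, 1.96 for Thbs2, 1.92 for Fn1 and 1.65 for Tnc, and between 1.07 and 1.39 for the other 5. Each of the 10 was above the median SD of all genes tested, 0.54. Among the 4 glands the SD ran from 0.27 for Ccn2 to 1.26 for Fn1, and the median of all genes was 0.36. A wide spread among tumours was not particular to the set. On the CPM scale the tumour SD was above the tumour mean for Col3a1 (958 and 587), Lum (123 and 75.2) and Sparcl1 (96.7 and 66.0). It was not for Pdgfra (13.1 and 21.5). The order of tumours was not shared by all members. Tumour 6 was highest for Spp1, Tnc, Postn, Sparc, Thbs2 and Tnxb, tumour 4 for Fn1, Thbs1 and Ccn1, and tumour 2 for Ccn2. Tumour 1 was lowest for Tnc, Postn, Thbs1, Ccn2 and Ccn1, tumour 2 for Fn1 and Thbs2, tumour 3 for Sparc and Tnxb, and tumour 5 for Spp1.

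Levels of different genes were compared per kilobase of merged exon (CPM per kb), with lengths from the GENCODE M21 annotation. On this scale the median over the tumours was 1311 for Spp1, the highest of the set, then 157 for Sparc, 46.8 for Postn, 24.2 for Ccn2 and 17.4 for Fn1. Ccn1 at 11.0, Tnc at 10.7, Thbs1 at 8.50 and Thbs2 at 5.33 followed, and Tnxb was last at 0.630. In the glands the medians were 418 for Sparc, 173 for Postn, 50.8 for Fn1 and 12.6 for Thbs2, while Tnc was last at 0.748 and Spp1 was the seventh at 4.72. In the tumours the ranges of neighbours in this order overlapped throughout: Spp1 ran from 91.5 to 5990 CPM per kb and Sparc from 30.1 to 455, and further down Ccn1 ran from 1.49 to 29.0 and Tnc from 0.944 to 24.1. Tumour by tumour, Sparc was above Postn in 6 of 6, Spp1 above Sparc in 5 of 6 and Thbs2 above Tnxb in 5 of 6, while the other neighbours kept the order of their medians in only 2 to 4 of 6 tumours.

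The cell type markers moved as follows beside these genes. The 12 fibroblast markers (such as Col1a1, Dcn and Pdgfra) summed to 1640, 436, 232, 859, 2060 and 6899 CPM in tumours 1 to 6, against 8505, 5958, 6054 and 3768 CPM in glands 1 to 4. In 5 of 6 tumours the sum was below each gland, and tumour 6 lay within the gland range. The sum gives most weight to abundant genes such as Col1a2 and Col3a1. Gene by gene, all 6 tumours lay below each gland for Dcn, Dpt, Pdgfra, Pdgfrb, Fap and Pi16. For Col3a1, Col6a1, Lum and Thy1, 4 or 5 tumours lay below each gland and 0 above. For Col1a1 and Col1a2, 4 lay below and 1 above. The median log2 difference of the list was -1.83, beside 0.17 for all genes. Among its members, Pdgfra, a receptor of fibroblast progenitors, had a log2 difference of -1.71 ± 0.44 (SE), the serine protease Fap -2.61 ± 0.70 and the collagen gene Col1a1 -0.69. Of the 12, 2 (Pdgfra and Fap) were lower at an adjusted p under 0.05 and 0 were higher, between 0 and 7 lower when 1 library was left out (7 without tumour 6). As the set was chosen with lower fibroblast markers in view, nothing is read from these counts. Tumour 3 thus had the lowest fibroblast sum and the next to highest Spp1, whereas tumour 6 had the highest of both.

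Spp1 is also made by macrophages and bone cells. The 11 macrophage markers summed to between 547 and 3416 CPM in the tumours and to between 401 and 1521 CPM in the glands, with tumour 6 highest and the other tumours within the gland range. Gland 4 alone set the lower end of that range. Glands 1 to 3 lay at 1346 to 1521 CPM, with tumours 1, 2, 4 and 5 below them and tumour 3 among them. Of these markers 2 rose and 0 fell: the lipopolysaccharide co-receptor Cd14 at a log2 difference of 3.40 ± 0.90 (SE, adjusted p = 0.0304, edgeR) and the lipid receptor Trem2 at 3.05 ± 0.75 (adjusted p = 0.0230). Both were lost when any one gland was left out, with adjusted p of at most 0.0833, and Cd14 also without tumour 4. Cd14 alone gave 1061 of the 1489 CPM of the macrophage sum in tumour 3 and 510 of 800 in tumour 4. In tumour 6 it gave 306 of 3416 CPM. The median of the 11 was 0.15, and C1qa, C1qb, C1qc, Lyz2, Cd68 and Adgre1 lay between -0.11 and 0.23. Mrc1 at a log2 difference of -1.51 ± 0.88 (SE), Csf1r at -0.998 ± 0.498 and Gpnmb at 1.75 ± 0.99 did not pass. Of 8 bone and cartilage markers 5 could be tested and 2 rose, the cartilage collagen Col2a1 and its regulator Sox9, while Alpl, Runx2 and Phex, at log2 differences of 2.43, 0.74 and 1.05, did not pass. The 2 were not high in the same tumours. Col2a1 ran from 0.139 CPM in tumour 6 to 253 CPM in tumour 3. Sox9 was lowest among the tumours in tumour 3, at 27.3 CPM, within the gland range of 16.4 to 37.4 CPM. Col2a1 was lost without gland 1 or 2 (adjusted p of at most 0.0678) and Sox9 in 8 of the 10 fits that left out 1 library, all but those without tumour 3 or 4 (at most 0.137). The other 3 bone and cartilage markers were too low to test. The osteoblast hormone gene Bglap averaged 5.39 ± 12.6 CPM in the tumours (SD, n = 6), with 3 of 6 above the glands, and the cartilage proteoglycan gene Acan 2.58 ± 3.74 CPM, with 6 of 6 above, and both had 0 counts in the glands. Sp7, a regulator of osteoblasts, averaged 0.0733 CPM in tumours and 0.0182 CPM in glands. The part of these cells in the Spp1 level was not tested. Basal and myoepithelial markers summed to between 150 and 4422 CPM in the tumours and to between 125 and 182 CPM in the glands, and 2 of 9 rose, the keratins Krt14 and Krt17. Krt17 was lost without any one gland (adjusted p of at most 0.0709), leaving 1, and 3 rose without tumour 1, 3 or 5. The other basal and myoepithelial markers did not pass and went both ways. Krt5, Lgr6 and Trp63 had log2 differences of 4.63, 2.75 and 2.38. Oxtr, Cnn1, Myh11 and Mylk, of the contractile myoepithelium, had -2.06, -1.21, -0.73 and -0.12. Pericyte and smooth muscle markers summed to between 45.8 and 294 CPM in the tumours and to between 171 and 3850 CPM in the glands, and of 7 markers 1 rose and 4 fell, a count of falls that was 1 or 2 without tumour 2, tumour 4 or any one gland. The marker that rose, Myocd, was near the floor, with at most 20 counts in a tumour and 2 in a gland. No rise was called without tumour 1, 2, 4 or 6 or gland 1, 2 or 3.

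**Figure D2:**
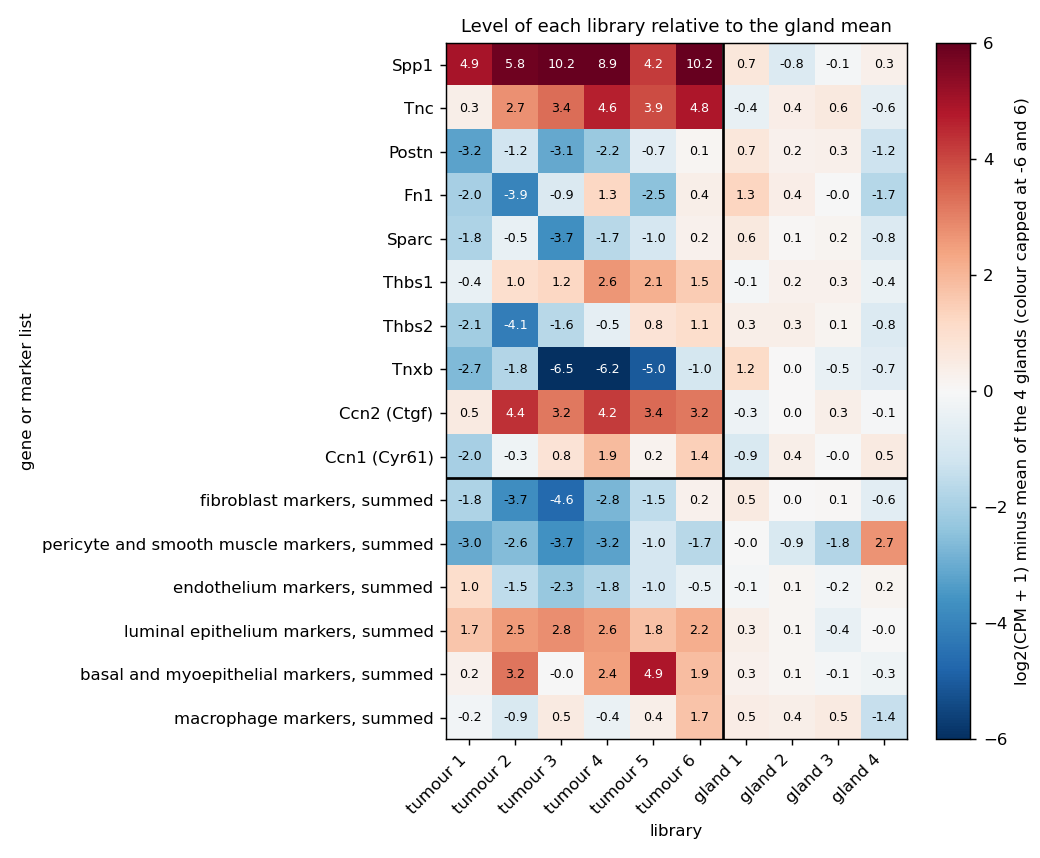
Level of each of the 10 genes (upper rows) and of the summed cell type markers (lower rows) in each library, as log2(CPM + 1) minus the mean of the 4 glands; tumours are left of the line and glands right. Spp1 is 4.21 to 10.23 above the gland mean in the tumours, whereas the fibroblast sum is below it in tumours 1 to 5 and 0.24 above it in tumour 6.

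Within the 6 tumours, each of the 10 genes was set against 5 marker sums (fibroblast, luminal, basal, macrophage, and pericyte with smooth muscle), on the log2 scale, by an exact two-sided permutation test over all 720 orders. This uses no gland and so not the contrast on which the genes were chosen. Of the 50 relations 0 passed after Benjamini-Hochberg adjustment, and 1 had an unadjusted p under 0.05. With fibroblast markers Pearson's r was -0.0626 for Spp1 (Spearman's rho -0.0857, exact p = 0.928 and 0.919, both adjusted p at least 0.936). It was 0.213 for Tnc (rho 0.486, exact p = 0.674 and 0.356) and -0.276 for Ccn2. It was 0.713 for Sparc, 0.701 for Thbs2, 0.636 for Postn and 0.543 for Tnxb, each short of the threshold at an adjusted p of at least 0.849. Without tumours 3 and 6, which lie at the ends of the fibroblast sum, r was -0.491 for Spp1, -0.169 for Tnc, -0.528 for Sparc, -0.141 for Postn, -0.372 for Tnxb and 0.763 for Thbs2, so for Sparc, Postn and Tnxb it rested on those tumours. The relation with the smallest p was that of Postn with pericyte and smooth muscle markers, at r = 0.849 and rho = 0.771 (exact p = 0.0375 and 0.103, adjusted p = 0.849), and r was 0.737 without tumours 5 and 6. Spp1 had r = 0.694 with luminal markers (rho 0.600, exact p = 0.136 and 0.242) and r = 0.526 with macrophage markers (rho 0.486, exact p = 0.282 and 0.356). Without the 2 tumours farthest from the median marker sum these became -0.0797 and 0.0743. The macrophage sum was mostly Cd14 in tumours 3 and 4, and the relation without Cd14 was not tested. With 6 tumours the smallest p that Spearman's rho can give is 0.00278. Pearson's r can give a smaller one, as only the observed order need reach it. After adjustment over the 50 relations, a single relation could not pass even at its smallest possible p. A relation that misses the threshold is therefore not shown to be absent.

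**Figure D3:**
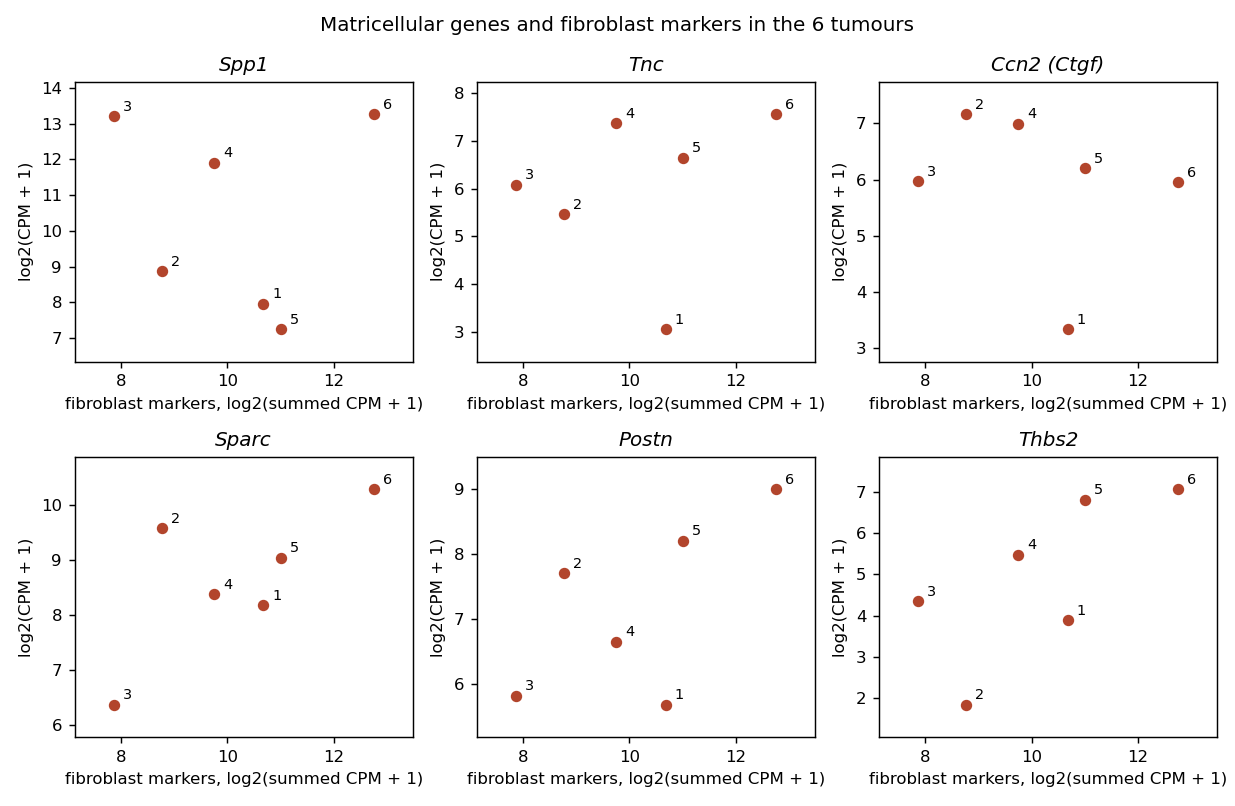
Each of 6 genes, as log2(CPM + 1) on the y axis, against the log2 of the summed fibroblast marker CPM plus 1 on the x axis, with 1 point per tumour and the tumour number beside it. Spp1 (r = -0.0626) is near its highest in tumours 3 and 6, at opposite ends of the fibroblast axis, whereas Thbs2 (r = 0.701) is highest in tumours 5 and 6.

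Among the 10 genes themselves, 45 pairs were compared over the 6 tumours in the same way, a comparison added after the values were seen. Of the 45 correlations 35 were positive, 4 had an unadjusted exact p under 0.05 and 0 passed after adjustment (smallest adjusted p = 0.328). Here too a single pair could not pass after adjustment over 45 pairs, even at its smallest possible p. All genes of a library share its scaling and depth. Tnc and Ccn1 had r = 0.955 (rho 0.886, exact p = 0.00833 and 0.0333), and r = 0.836 without tumours 1 and 6. Tnc and Thbs1 had r = 0.913 (rho 0.829, exact p = 0.0181 and 0.0583), and 0.975 without tumours 1 and 6. Postn and Sparc had r = 0.859 (rho 0.886, exact p = 0.0236 and 0.0333), and 0.897 without tumours 1 and 6. Thbs1 and Ccn1 had r = 0.873 (rho 0.829, exact p = 0.0292 and 0.0583), but 0.144 without tumours 1 and 4, so that pair rested on those tumours. Spp1 and Tnc, for which the set is named, had r = 0.568 (rho 0.543, exact p = 0.232 and 0.297).

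The tumours were taken at ages from 19 to 53 weeks, and a slope on age within the 6 tumours also leaves the glands out. Of 15076 genes tested 0 passed by edgeR (0%), with 510 at an unadjusted p under 0.05, while DESeq2 called 42. Of the 10 genes 9 were tested, as Tnxb was filtered out for low counts, and 0 passed. Fn1 had the steepest slope of the 9, at a log2 of -0.94 ± 0.41 (SE) per 10 weeks (adjusted p = 0.991, edgeR), and it was negative in each of the 10 alternatives, from -1.16 to -0.62. The youngest tumour, tumour 4 at 19 weeks, had the highest Fn1. The slope of Spp1 was -0.55 ± 0.96 and that of Tnc -0.17 ± 0.37 per 10 weeks. The other 6 lay between -0.36 for Ccn1 and 0.20 for Thbs2, and 7 of the 9 slopes changed sign under some alternative.

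The other genes of this biology were read from lists. The 24 further matricellular genes in the table, among them thrombospondins, CCN proteins, SMOC, SPOCK and fibulin genes, gave 20 that could be tested, of which 1 rose and 1 fell, with a median log2 difference of -0.99. Dmp1, an acidic bone matrix protein of the same family as Spp1, rose by 3.21 ± 0.99 (SE, adjusted p = 0.0494, edgeR), at 0.198 to 3.15 CPM in the tumours and 0.0557 to 0.127 CPM in the glands. Vitronectin (Vtn), a plasma and matrix adhesion protein, was at 0.0693 to 3.76 CPM in the tumours and 9.84 to 23.0 CPM in the glands, a log2 difference of -3.90 ± 1.03 (adjusted p = 0.0295). Dmp1 was not called in 8 of the 10 fits that left out 1 library, all but those without tumour 3 or 5, and Vtn in 5, without tumour 2 or any gland. Ibsp and Dspp, further bone and tooth relatives of Spp1, were too low to test, at means of 0.156 and 0.00929 CPM in tumours and 0 counts in the glands.

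Of 17 receptors that bind these proteins, 5 rose and 1 fell, with a median of -0.17. Cd44, a hyaluronan receptor that also binds osteopontin, was at 79.4, 200, 130, 131, 163 and 151 CPM in tumours 1 to 6, against 20.5, 45.8, 41.7 and 12.4 CPM in glands 1 to 4. Each tumour lay above each gland, with a log2 difference of 2.24 ± 0.43 (SE, adjusted p = 0.00974, edgeR). Itga8, an integrin subunit for osteopontin and tenascin C, rose by 3.82 ± 1.00 (adjusted p = 0.0291), in 5 of 6 tumours above each gland and in tumour 5 within them. Itgb8, which pairs with alpha-v to activate TGF-beta, rose by 3.53 ± 0.77 (adjusted p = 0.0153). The heparan sulfate carriers Sdc1 and Sdc4 (syndecans) rose by 2.61 ± 0.66 (adjusted p = 0.0258) and 1.99 ± 0.45 (adjusted p = 0.0171). Cd36, a thrombospondin and fatty acid receptor of fat cells and endothelium, was at 0.938 to 168 CPM in the tumours and 506 to 2194 CPM in the glands, a log2 difference of -5.19 ± 1.37 (adjusted p = 0.0297). Fat cell markers summed to 14.8 to 1062 CPM in the tumours and 3949 to 24368 CPM in the glands, and 9 of 9 fell, but only 4 to 6 without tumour 2, 4 or 5 or gland 1, 2 or 3. Endothelial markers summed to 44.8 to 462 CPM in the tumours and 199 to 253 CPM in the glands, and of 9 markers 0 rose and 4 fell, but 0 fell without tumour 4 or gland 1, 2 or 3, 1 or 2 without tumour 2, 3 or 5 or gland 4, and 6 without tumour 6. The part of these cells in the Cd36 difference was not tested. Cd44 was called in each of the 10 fits that left out 1 library. Itgb8 was lost without gland 1, Sdc4 without gland 1 or 2, Sdc1 without any one gland, Itga8 without tumour 4 or any one gland, and Cd36 without tumour 4 or gland 1, 2 or 3, with adjusted p of at most 0.0806 in these fits.

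Ccn1 and Ccn2 are often read as Yap targets, so 13 further Yap and Tead genes and targets were listed, of which 2 rose and 2 fell, with a median of 0.30. The adaptor Ajuba rose by 2.31 ± 0.67 (SE, adjusted p = 0.0409, edgeR) and the ectonucleotidase Nt5e by 2.18 ± 0.63 (adjusted p = 0.0416). Amotl2, a target that also restrains Yap, fell by 1.63 ± 0.40 (adjusted p = 0.0244) on the log2 scale, and the kinase Lats2 fell by 0.98 ± 0.27 (adjusted p = 0.0364). Leaving out 1 library ended the call of Ajuba in 8 of 10 fits, of Nt5e in 7, of Lats2 in 6 and of Amotl2 in 3, any one of glands 1 to 3 being enough for each of the 4. Of 12 TGF-beta ligands and targets 1 rose and 0 fell, with a median of 0.05. Pmepa1, a target that limits TGF-beta signalling, was at 86.0 to 283 CPM in the tumours and 32.0 to 71.6 CPM in the glands, a log2 difference of 2.05 ± 0.41 (adjusted p = 0.0112), called in each of the 10 fits. The list counts are read beside the 6.89% and 8.19% of all genes called, and no list was tested as a set.

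**Figure D4:**
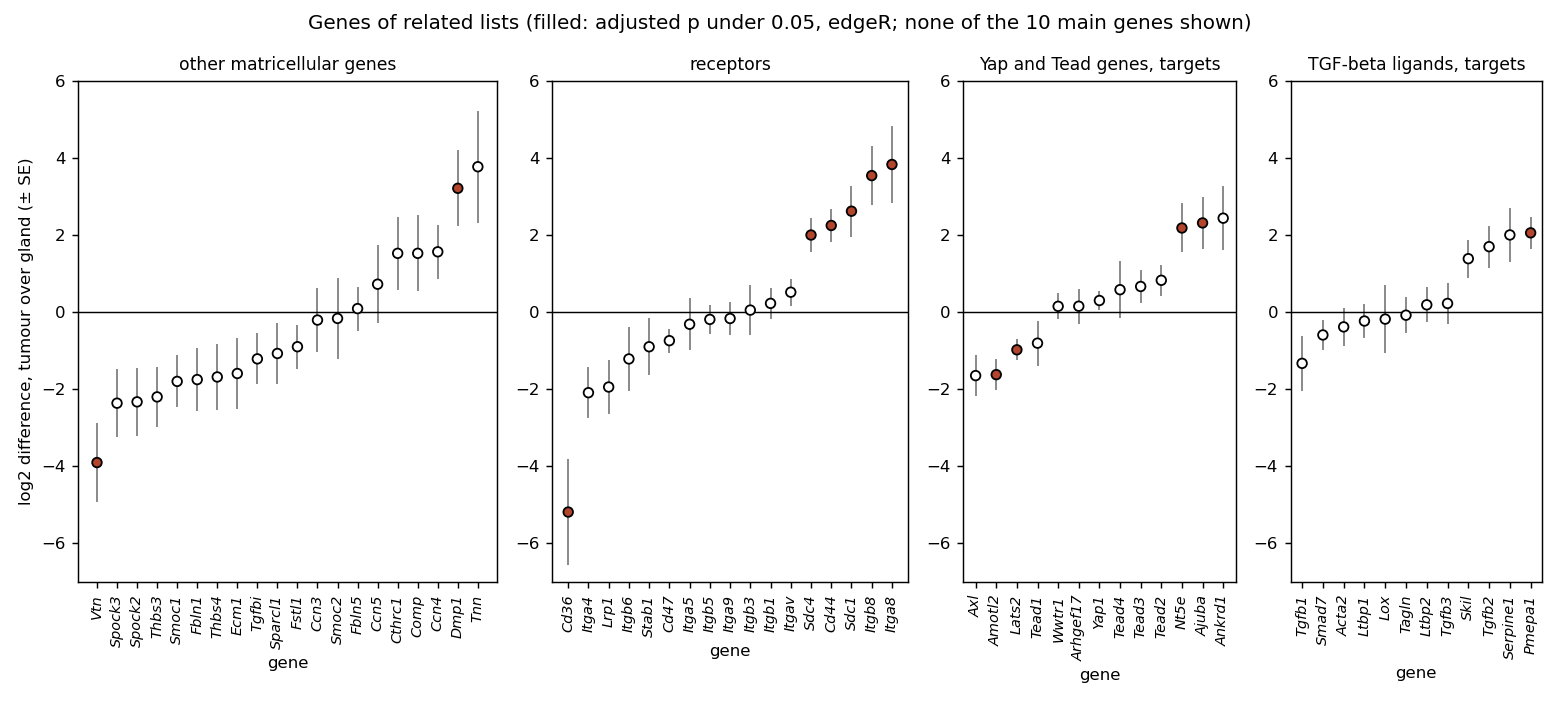
Log2 difference of tumour over gland with its SE (y axis) for each tested gene of 4 lists, ordered by value; filled points have an adjusted p under 0.05 by edgeR. Receptors hold 5 filled points above 0 and 1 below, and most other matricellular genes are open points below 0.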

How the data were processed

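RNA of whole tumours and whole glands was extracted with Trizol and polyA-selected, and libraries were made with a NEBNext Ultra kit, per the labels. The authors deposited whole-number read counts per gene symbol for 10 libraries. Salmon 1.2.0, DESeq and mm9 are named by the submitters' processing notes, without their roles. How counts were summed to genes, and whether by strand, was not given in the sources at hand. That each library is from a different animal is not stated in the labels, and p-values therefore cover the spread among the libraries. Libraries taken at different ages are not technical repeats of the same sample. Only tumours 1 and 6, both at 25 weeks, and glands 1 to 3, all at 20 weeks, share an age. The labels number tumours 1 and 6 as different tumours, so the spread may be purely technical only within glands 1 to 3.

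The genes, the lists and the rule for naming genes were chosen with earlier results of these data known. The rule named all 10 genes, every called gene of the receptor, relative, Yap and TGF-beta lists where 6 or fewer were called in a direction, up to 3 called genes a direction of a cell type list, and the 5 nearest patterns of Spp1 and of Tnc. Of the cell type genes, those bearing on a result are named.

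Counts were filtered (filterByExpr), TMM-scaled and tested with the edgeR 4.0.16 quasi-likelihood F test in R 4.3.3, two-sided, with Benjamini-Hochberg adjustment over all genes tested and a threshold of 0.05. An SE is the log2 difference divided by the square root of F. TMM factors were 0.422 in tumour 1, 0.580 in gland 4 and 0.889 to 1.41 elsewhere, and the biological coefficient of variation was 0.707. Age slopes used the same test within tumours. These tests were also run on simulated data with a single dispersion for all genes and large set differences. The simulation gave no library a salivary, muscle or mitochondrial excess. It therefore does not show how the tests behave in these libraries. Alternatives were RLE and upper-quartile scaling, other filters, DESeq2 1.42.0, limma-voom (limma 3.58.1), age as a covariate, omitted libraries and omitted tissue genes. Genotype and tissue state differ together between the groups and cannot be told apart. Ages overlap, and age entered only as an alternative. Exons of Spp1, Fn1, Thbs1, Tnxb and Ccn2 overlap another gene model by 309, 227, 187, 3 and 636 bases. The 4 such models in the table had at most 53 counts in a library.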

Additional observations from a re-analysis of the deposited data

Results flagged for a closer look

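Each of the 10 genes and 5 marker sums was checked in the tumours and in the glands, 30 groups in all, for a library whose gap to the nearest other library was large against the range of its group. For normally distributed values, chance alone marks about 1 in 20 such groups. The check was made on the CPM scale, where that rate need not hold. In all, 5 groups were marked, none of them for one of the 10 genes. The summed fibroblast markers of tumour 6 were 6899 CPM, against 232 to 2060 CPM in the other tumours. This library also had the highest Spp1, Tnc, Postn, Sparc, Thbs2 and Tnxb among the tumours. The summed macrophage markers of tumour 6 were 3416 CPM, against 547 to 1489 CPM in the other tumours. The summed basal and myoepithelial markers of tumour 5 were 4422 CPM, against 150 to 1414 CPM in the other tumours. In gland 4 the summed macrophage markers were 401 CPM, against 1346 to 1521 CPM in the other glands. The summed pericyte and smooth muscle markers of gland 4, which include Des, a gene that skeletal muscle also expresses, were 3850 CPM, against 171 to 584 CPM in the other glands.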

How the results depend on the processing

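No paired analysis was possible because the glands and tumours share no numbers that pair them. The log2 differences of the 10 genes kept their sign in all 20 alternatives, and Spp1, Tnc and Ccn2 passed in each. Thbs1 passed in 6, and Postn and Tnxb in 1 each. As these refits reuse the contrast that chose the set, they show dependence on the settings only. Over all genes, 1384 were higher and 1646 lower. DESeq2 called 2657 higher and 2595 lower, age as a covariate 908 and 991, and omitting tumours 1 and 6 and gland 4 1814 and 2826; the causes were not tested. Fits without 1 library called 430 to 1737 higher and 623 to 1849 lower, fewest without gland 1; the count of higher genes moved by over 1.5 times without tumour 4 or any one gland, and that of lower genes without tumour 2, tumour 4, gland 1 or gland 2. For the age slope DESeq2 called 42 genes against 0, and without 1 tumour 0 to 0 were called. Without tumours 1 and 6 the slope of Sparc was 0.0708 per 10 weeks. Without 1 tumour the slopes, in log2 per 10 weeks, ran from -1.63 to 0.36 for Spp1, -0.75 to 0.0278 for Tnc, -0.74 to 0.49 for Postn, -0.89 to 0.13 for Sparc, -0.63 to 0.46 for Thbs1, -1.23 to 0.51 for Thbs2 and -0.19 to 0.24 for Ccn2, so their signs rest on single tumours. With 6 tumours and 4 glands and this spread, a gene that misses the threshold may still differ.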

Other observations

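Over the 6 tumours, and among 10040 genes above the median level, the genes whose log2(CPM + 1) followed Spp1 most closely were Rassf4 (Pearson's r = 0.996), Orai1 (0.994), Bcor (0.978), Phf10 (0.977) and Emp1 (0.975), and 40 genes had r above 0.9. Those nearest to Tnc were Rnf41 (0.984), Hebp1 (0.981), Col12a1 (0.979), 9530068E07Rik (0.977) and Slc39a1 (0.972), with 55 above 0.9. Col12a1 encodes a fibril-associated collagen and Orai1 a calcium channel of the plasma membrane. With 6 points and this many candidates, high values of r are found for many genes, and they are given as a description without a test. Thbs2 had r = 0.769 with macrophage markers (rho 0.714, exact p = 0.0667 and 0.136, adjusted p = 0.849), and 0.174 without tumours 2 and 6.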
